A study of Homo sapiens with 4 samples.

Results

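The genes of fatty acid and cholesterol synthesis described here were FASN, ACACA, ACLY and SCD, which make and desaturate fatty acids, HMGCS1 and FDFT1, which act in cholesterol synthesis, and SREBF1 and SREBF2, which encode the transcription factors of both pathways. The 8 genes were taken from the peak lists by their Ensembl identifiers, out of 20428 identifiers that had a peak on their own strand in at least 1 list. The RNA bound by IGF2BP2 was profiled by iRIP-seq in Jurkat, a line of human T-cell acute lymphoblastic leukemia (T-ALL). In iRIP-seq, cells are crosslinked with UV light and the RNA held by a protein is recovered with an antibody and sequenced. The group IGF2BP2_IP had 2 libraries made with an anti-IGF2BP2 antibody, and the 2 libraries of the group IGF2BP2_input were not analysed here. The labels name no treatment and no genetic change in either group, and everything rests on 1 cell line. They do not say whether the replicates came from separate cultures, so the spread between them may be technical.

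Fatty acids are built from citrate in the cytosol. ATP citrate lyase (ACLY) splits citrate into acetyl-CoA, acetyl-CoA carboxylase (ACACA) turns it into malonyl-CoA, fatty acid synthase (FASN) joins these units into palmitate, and stearoyl-CoA desaturase (SCD) adds a double bond to the product. Cholesterol synthesis starts from the same acetyl-CoA, with HMG-CoA synthase (HMGCS1) early and squalene synthase (FDFT1) at the first step that leads to sterols alone. The SREBP proteins made from SREBF1 and SREBF2 are released from membranes when sterols are low and switch on most of these genes. IGF2BP2 is an RNA-binding protein and a reader of N6-methyladenosine (m6A) that is known for making its target mRNAs more stable.

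A peak is a stretch of RNA where reads pile up, and its height is the number of reads, called tags, that overlap there. The list of replicate 1 has 145715 peaks and that of replicate 2 has 137934. Of these, 74237 and 77288 were sense peaks, that is, on the strand of their gene with the largest share of their length in coding sequence (CDS), a UTR, a noncoding exon or an intron. The lists start at 4 tags in replicate 1 and at 5 tags in replicate 2. How many reads each library had is unknown. Heights were therefore left unadjusted for depth, and no value is relative to how much of each RNA the cells held. As a check on the cell type, 8 of 13 T cell marker genes (61.5%) had a sense peak in both lists, close to the 59.5% of all identifiers. Overlapping peaks were present in 7 of the 13 (53.8%), against 16.4% of all identifiers. TRAC, TRBC1 and TRBC2 are not among the 8, as their peaks, present in both lists, stood under identifiers that could not be named. The B cell markers gave 1 of 5 (PAX5), the myeloid markers 2 of 5 (CSF1R and SPI1) and the epithelial markers 2 of 4 (KRT8 and CDH1), all of them without overlapping peaks. A peak is no measure of expression.

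IGF2BP2 peaks were most numerous on FASN, SREBF2, ACLY and SREBF1, fewer on SCD, ACACA and FDFT1, and nearly absent from HMGCS1. In sum the 8 genes held 122 sense peaks in replicate 1 and 168 in replicate 2, a mean of 145 ± 32.5 (SD, n = 2). These were 0.164% and 0.217% of all sense peaks. Both replicates had a sense peak on 7 of the 8 genes, all but HMGCS1, against 59.5% of the 20428 identifiers and 43.4% of the 20056 protein-coding genes of the RefSeq table. An overlapping pair of peaks, 1 from each replicate on the same strand with at least 1 bp in common, was present in 6 genes: FASN, ACLY, SCD, FDFT1, SREBF1 and SREBF2. The background for this was 16.4% of the identifiers and 14.9% of the protein-coding genes. A pair that reached 10 tags in both replicates was present in ACLY alone, against backgrounds of 2.96% and 2.82%. The 8 genes share a function but were chosen with earlier results of these data known. These counts therefore describe the list and were not tested. A protein-coding gene counted in its background only where an identifier could be named for it, and 5006 of the 20428 identifiers could not be named. The shares of protein-coding genes may thus be too low. The counts are adjusted neither for the length of a gene nor for the abundance of its RNA.

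**Figure D1:**
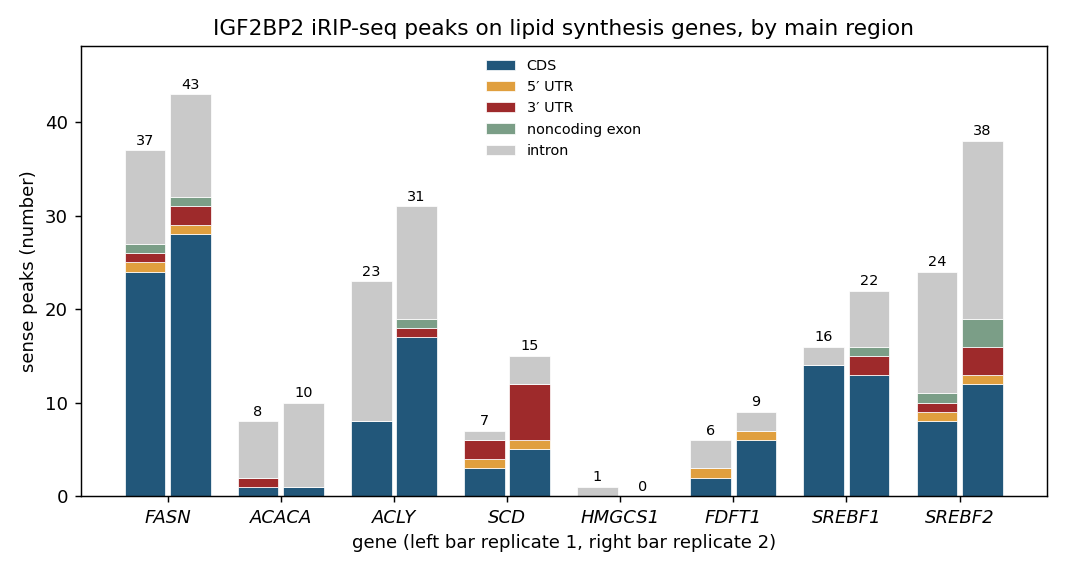
Number of sense peaks of IGF2BP2 on each gene (vertical axis) in replicate 1 (left bar) and replicate 2 (right bar), with colours for the region that holds the largest share of each peak and the total above each bar. FASN has 37 and 43 peaks, most of them in CDS, ACACA has 8 and 10, nearly all in introns, and HMGCS1 has 1 and 0.

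ACLY carried the highest shared peak of the 8 genes. It is listed as ENSG00000131473.17 on the minus strand of chromosome 17, and had 23 peaks in replicate 1 and 31 in replicate 2 (mean 27 ± 5.66, SD, n = 2). At chr17:41918850-41918900 both lists held a peak on the same interval, of 14 tags (replicate 1) and 24 tags (replicate 2). A share of 0.42 of this interval was 5′ UTR and 0.58 intron, so that it spanned the end of a leader exon. The next ACLY pairs lay in coding sequence, with 8 and 9 tags at chr17:41913800-41913850 and with 7 and 10 tags at chr17:41896600-41896650. ACLY had 10 pairs, and replicate 2 was the higher in each of them. They ran from 11.7 to 58.9 kb after the 5′ end of the gene, and in 8 of them both peaks held CDS as well as intron sequence. A CDS peak of 15 tags in replicate 2 at chr17:41878100-41878150 had 4 tags in replicate 1, the lowest height listed there. Its ratio of 3.75 was the highest among the pairs of the 8 genes.

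ACACA had no shared peak at all. This gene, which encodes the enzyme that sets the pace of fatty acid synthesis, is listed as ENSG00000278540.5 on the minus strand of chromosome 17 and is the longest of the 8 at 321845 nt. It had 8 peaks in replicate 1 and 10 in replicate 2, with heights of 4 to 5 tags and of 5 to 6 tags. Introns held 6 of the 8 and 9 of the 10. None of them overlapped a peak of the other replicate, and HMGCS1 was the only other gene of which this was true.

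FASN, listed as ENSG00000169710.9 on the minus strand of chromosome 17, had the most peaks of the 8 genes although it is 19899 nt long, with 37 in replicate 1 and 43 in replicate 2 (mean 40 ± 4.24, SD, n = 2). Only 138 of 16756 identifiers with a sense peak in replicate 1, and 136 of 15826 in replicate 2, had more. CDS held 24 of its peaks in replicate 1 and 28 in replicate 2. In each replicate 24 peaks were overlapped by the other. The 2 highest FASN pairs were a CDS pair of 9 and 20 tags at chr17:82096300-82096350 and a CDS pair of 9 and 18 tags at chr17:82088100-82088150. The second belonged to the densest group of pairs on the gene, 5 pairs between positions 82087950 and 82089000, with heights of 5 to 9 tags in replicate 1 and of 9.33 to 18 tags in replicate 2. That group was picked after the values had been seen. Of the 24 FASN pairs, 18 lay mainly in CDS in both replicates, and 18 covered exactly the same interval.

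SCD, listed as ENSG00000099194.6 on the plus strand of chromosome 10, showed how far a single library can depart from the other. Its highest peak had 27 tags in replicate 1, at chr10:100348050-100348100, mainly in CDS, and it was also the highest of all 290 peaks on the 8 genes. Replicate 2 had no overlapping peak there. The highest SCD peak of replicate 2 had 14 tags, at chr10:100356500-100356550, and replicate 1 had none that overlapped it. Of 7 SCD peaks in replicate 1 and 15 in replicate 2, 2 of each were overlapped. The higher of these pairs lay at the start of the mRNA, with 7.75 tags at chr10:100347300-100347500 and 8.5 tags at chr10:100347250-100347550. The other, at chr10:100360700-100360750, had 5 and 12 tags. SCD was the gene with the most peaks mainly in the 3′ UTR, 2 in replicate 1 and 6 in replicate 2, of 4 and of 5 to 7 tags. These did not overlap each other, but each of the 2 in replicate 1 touched a peak of replicate 2 at a boundary.

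The 2 cholesterol enzymes differed from each other. HMGCS1 (ENSG00000112972.15, minus strand of chromosome 5) had a single intron peak of 4 tags, the lowest height listed, in replicate 1 and no peak in replicate 2. The lists hold only peaks above a minimum, so the lack of a peak sets no limit on binding. FDFT1 (ENSG00000079459.13, plus strand of chromosome 8) had 6 peaks in replicate 1 and 9 in replicate 2, and 4 of each were overlapped. Its highest pair lay wholly in 5′ UTR at chr8:11802750-11802800, where replicate 1 had 6 tags and replicate 2 had 16. CDS held 2 FDFT1 peaks in replicate 1 and 6 in replicate 2.

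Both regulators had peaks in coding sequence and in introns, with more in introns than in CDS for SREBF2 only. SREBF1 (ENSG00000072310.18, minus strand of chromosome 17) had 16 peaks in replicate 1, of which 14 were mainly in CDS, and 22 in replicate 2, of which 13 were. Its highest pair, at chr17:17815850-17815900 in CDS, had 10 tags in replicate 1 and 9 in replicate 2. All 12 SREBF1 pairs lay between 16.5 and 22.8 kb after the 5′ end of a gene of 25653 nt, and none was found nearer to its start. A peak of 15 tags close to the 5′ end, at chr17:17836700-17836750, was listed in replicate 2 only. SREBF2 (ENSG00000198911.12, plus strand of chromosome 22) had 24 peaks in replicate 1 and 38 in replicate 2, and 9 of each were overlapped. Introns held 13 and 19 of them. Its 2 highest pairs were tied. One, at chr22:41900300-41900350, had heights of 8 tags in replicate 1 and 7 in replicate 2 and lay mainly in a noncoding exon with a share of 0.42 in CDS. The other, at chr22:41904850-41904900 in CDS, had 7 and 8 tags. The 2 highest SREBF2 peaks, of 15 tags each in replicate 2, had no counterpart in replicate 1.

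**Figure D2:**
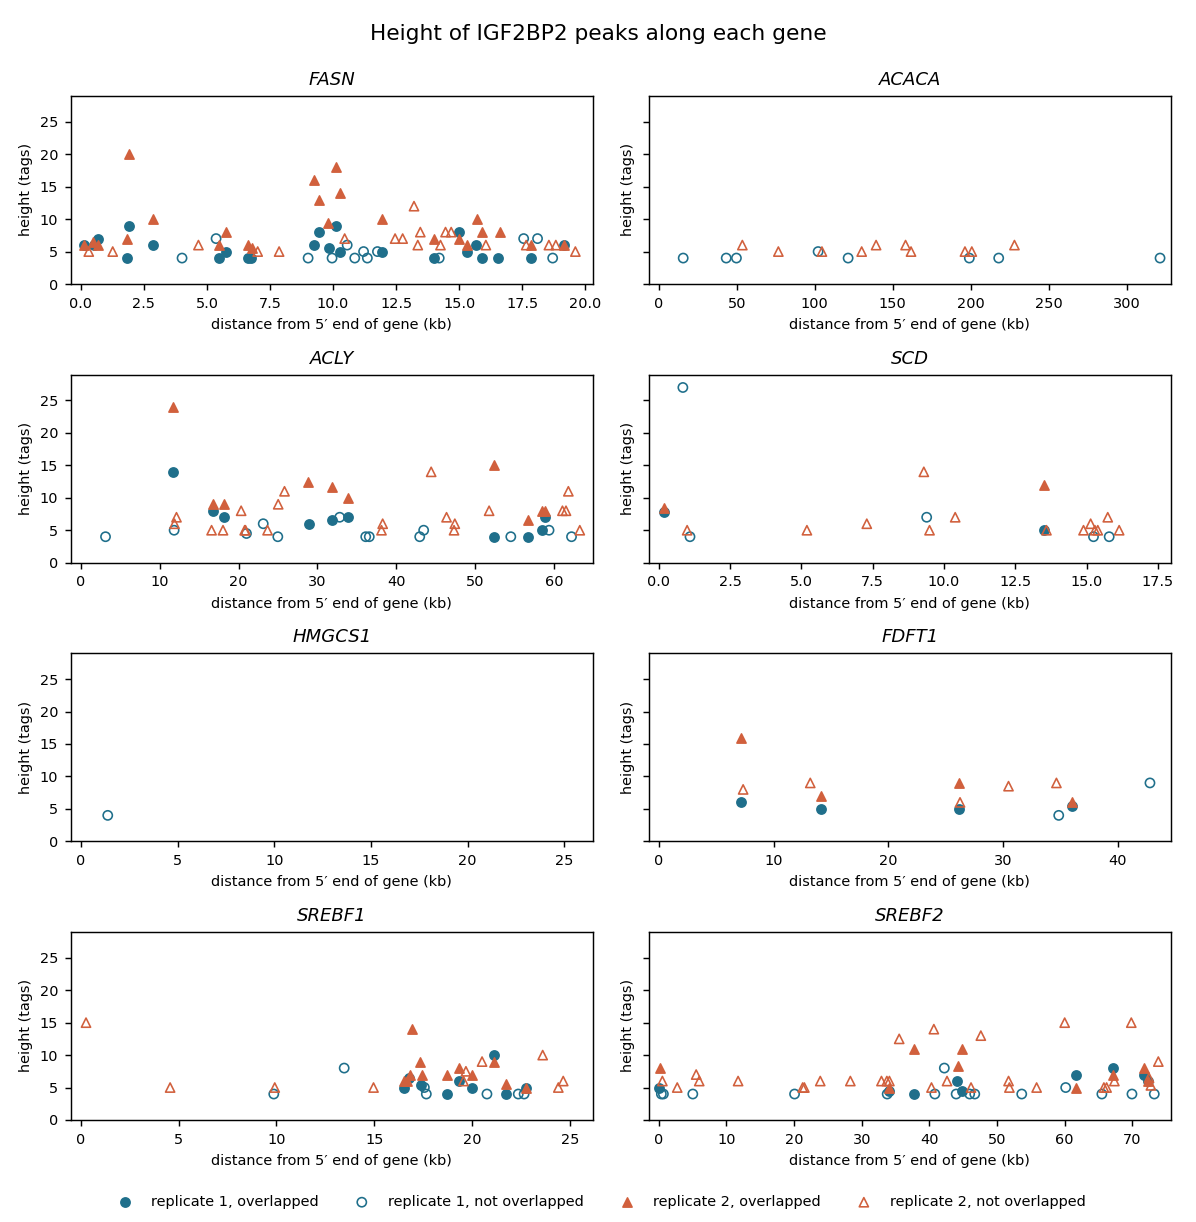
Height of each sense peak in tags (vertical axis) against its distance from the 5′ end of the gene in kb (horizontal axis, scaled to each gene), with circles for replicate 1, triangles for replicate 2, and filled symbols for peaks overlapped by the other replicate. The filled symbols run along the whole of FASN, are confined to 16.5 to 22.8 kb in SREBF1 and are absent from ACACA and HMGCS1, and the open circle at 27 tags is the SCD peak of replicate 1.

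Among the 61 overlapping pairs of the 8 genes, the peak of replicate 2 was the higher in 51 (83.6%), equal in 4 and lower in 6, with a median ratio of 1.5. Over all genes it was higher in 77.8% of 12463 pairs, with a median ratio of 1.4. The gene with the least shift was SREBF2, with a median ratio of 1.14 over 9 pairs, and the highest median was 1.75 in SCD, over 2 pairs. Depth and binding cannot be told apart in these ratios. Of the 10 pairs with the highest lower height, ACLY held 5, FASN 3, and SCD and SREBF1 1 each, and the lower height of these 10 ranged down to 7 tags. The tenth was tied, at 7 and 8 tags, with 2 pairs of SREBF2 and 1 of FASN, which were left out by position alone. Over all the pairs, 37 covered the same interval in both replicates and 38 lay mainly in CDS in both.

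**Figure D3:**
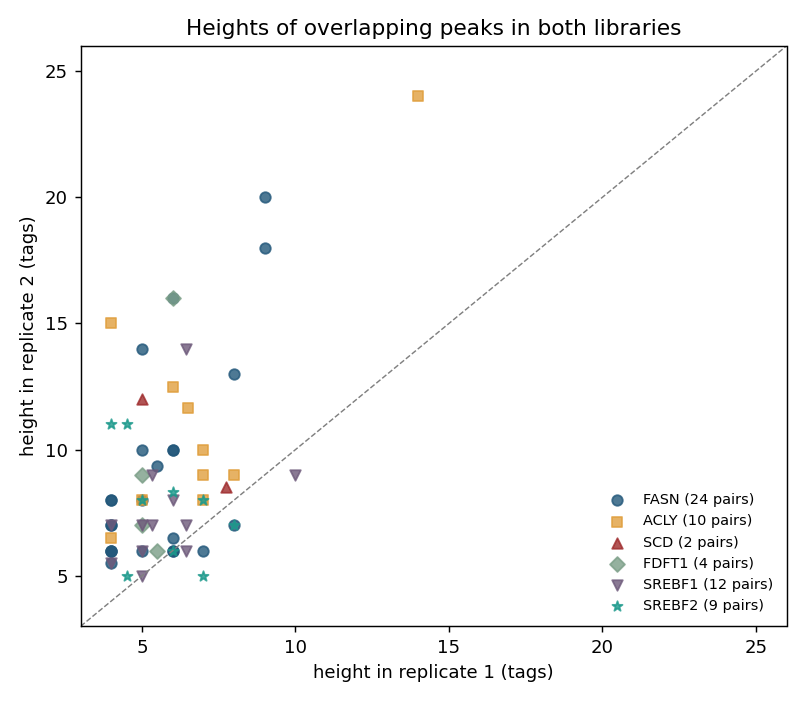
Height in replicate 1 (horizontal axis, tags) and in replicate 2 (vertical axis, tags) of the 61 overlapping peak pairs, with a symbol for each gene and a dashed line for equal heights. Most points lie above the line, 51 of the 61, and the ACLY pair of 14 and 24 tags stands apart at the top right.

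Per length, the genes fell into a wide order. The length is that of the whole RefSeq interval, introns included, and exon lengths were not used. The order is thus not adjusted for how much of each gene is intron. FASN had 18.6 and 21.6 peaks per 10 kb of gene in replicates 1 and 2 (mean 20.1 ± 2.13, SD, n = 2). Among 12528 protein-coding genes named by position, 119 in replicate 1 and 115 in replicate 2 were denser. These genes all had a sense peak in at least 1 list, and genes without any were left out. SREBF1 followed with 7.41 ± 1.65 per 10 kb, SCD with 6.25 ± 3.22, ACLY with 4.24 ± 0.889, SREBF2 with 4.18 ± 1.33 and FDFT1 with 1.72 ± 0.485. SREBF1, at 6.24 and 8.58 in replicates 1 and 2, lay above ACLY, at 3.61 and 4.87, and above SREBF2, at 3.23 and 5.12, with no overlap of values. SCD, at 3.98 and 8.53, overlapped all 3, and ACLY and SREBF2 differed by less than their spread. ACACA had 0.249 and 0.311 peaks per 10 kb, below the median of these 12528 genes at 0.459 and 0.457, and HMGCS1 had 0.385 and 0. The 90th percentile of all named genes was 3.49 in replicate 1 and 4.57 in replicate 2, which FASN, ACLY, SCD and SREBF1 exceeded in both replicates and SREBF2 in replicate 2 only.

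**Figure D4:**
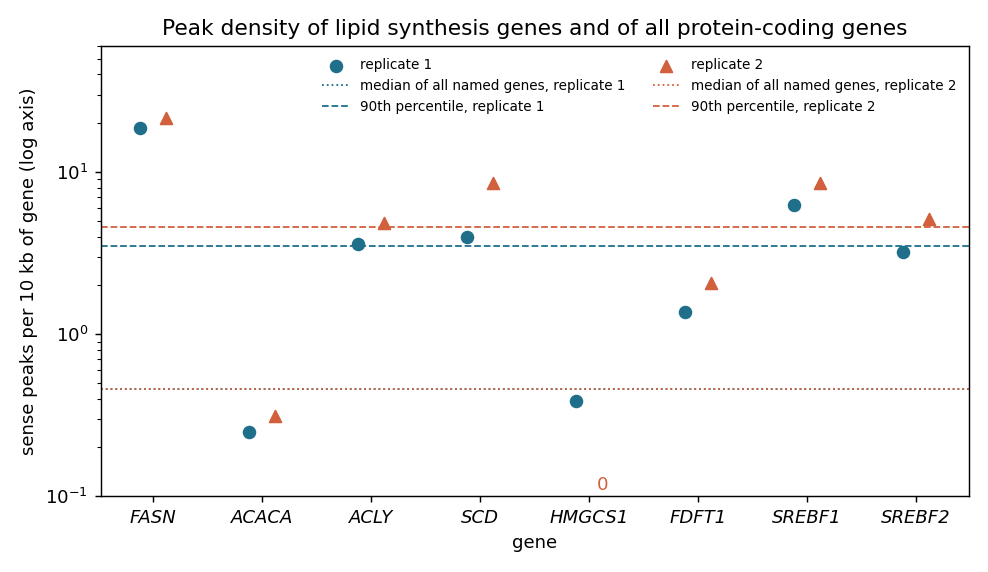
Sense peaks per 10 kb of gene (vertical log axis) for each gene in replicate 1 (circles) and replicate 2 (triangles), with dotted lines at the median and dashed lines at the 90th percentile of 12528 named protein-coding genes in each replicate. FASN lies highest at 18.6 and 21.6, ACACA lies below the median lines at 0.249 and 0.311, and HMGCS1 has 0 in replicate 2, written at the foot of the axis.

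A larger share of the peaks of the 8 genes lay in coding sequence than of sense peaks at large. CDS was the main region of 60 of 122 peaks in replicate 1 (49.2%, 95% Wilson interval 40.5% to 57.9%) and of 82 of 168 in replicate 2 (48.8%, 41.4% to 56.3%), against 19.9% and 25.6% of the sense peaks of all genes. The intervals cover counting error only. They treat peaks as independent, although the peaks cluster in 8 genes, and PCR copies of a read are not separate molecules. FASN held 24 of the 60 CDS peaks in replicate 1 and 28 of the 82 in replicate 2, while ACACA held 1 in each. Introns were the main region of 41.8% and 36.9% of the peaks, against 69.2% and 62.4% over all genes. The 5′ UTR was the main region of 4 peaks in each replicate. For the 3′ UTR the numbers were 5 and 14, and for noncoding exons 2 and 6. FASN, with 64.9% and 65.1%, had similar shares in CDS in both libraries, while ACLY went from 34.8% to 54.8% and SREBF1 from 87.5% to 59.1%. Many peaks lay across the ends of exons. Of the member peaks, 44.3% in replicate 1 and 45.8% in replicate 2 held CDS together with intron sequence, against 15.5% and 21.0% over all genes. Peaks that were intron alone numbered 28 and 32. In 33 of the 61 pairs both peaks held CDS as well as intron.

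A larger share of the peaks was found again in the other library on these genes than over all genes, and a larger share in CDS than in introns. All 4 peaks mainly in the 5′ UTR were overlapped in each replicate, but the share of such peaks over all genes was not computed. Of the 122 peaks in replicate 1, 58 (47.5%, 38.9% to 56.3%) were overlapped by replicate 2, against 16.6% of the sense peaks of all genes. Of the 168 in replicate 2, 61 (36.3%, 29.4% to 43.8%) were overlapped by replicate 1, against 15.8%. FASN held 24 of the overlapped peaks in each replicate, and ACACA and HMGCS1 held none. SCD had 28.6% of its peaks overlapped in replicate 1 and 13.3% in replicate 2, the latter below all genes. FASN, ACLY, FDFT1, SREBF1 and SREBF2 were each above all genes in both replicates. These intervals, too, treat peaks as independent. For member peaks mainly in CDS the shares were 65.0% and 48.8%, against 45.8% and 35.0% for CDS peaks of all genes, and for member peaks mainly in introns 25.5% and 22.6%, against 7.11% and 7.12%. Of the peaks with intron sequence alone, 2 of 28 (7.14%) and 2 of 32 (6.25%) were overlapped, against 2.91% and 3.22% over all genes. Median heights were also above those at large, at 5 tags in replicate 1 and 6 in replicate 2 against 4 and 5 tags over all genes. The lowest listed height made up 46.7% and 25.6% of the member peaks, against 66.8% and 54.4%. At 10 tags or more, 3 member peaks in replicate 1 (2.46%) and 30 in replicate 2 (17.9%) remained, against 2.73% and 8.75% over all genes. The share of such peaks was thus above that at large in replicate 2 only. Height, region and overlap moved together in these lists, and the part of each was not tested.

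In 5 of the 8 genes a pair held 5′ UTR in both peaks, FASN, ACLY, SCD, FDFT1 and SREBF2, against 4.6% of the identifiers and 4.53% of the protein-coding genes. This property was chosen after the values had been seen, so the count is a description only. The heights were 14 and 24 tags in ACLY, 7.75 and 8.5 in SCD, 6 and 16 in FDFT1, 6 and 6 in FASN at chr17:82098100-82098150, and 5 and 8 in SREBF2, at chr22:41833150-41833200 in replicate 1 and chr22:41833150-41833250 in replicate 2. Only the ACLY pair reached 10 tags in both. FASN and FDFT1 each had a further such pair that was mainly CDS. RefSeq promoter windows, which hold the first 50 transcribed bases, start within 100 nt of the shared peak for ACLY, SCD and SREBF2. Their last 30 bases are printed 5′ to 3′ to show what the start of these transcripts looks like next to the peak, with matches to GGAN, the motif the study names for IGF2BP2, in capitals (G, G, A and any base, N, on the transcript strand only):
ACLY: gcggggttcgtcgggcctgtGGAAgaagcg
SCD: cccctgcttggcagcGGATaaaagggggct
SREBF2: cgcaacgcaaacatggcggcgggtggcacc
These bases lie at chr17:41918902-41918931 on the minus strand, chr10:100347253-100347282 on the plus strand and chr22:41833125-41833154 on the plus strand of GRCh38.p14. The first base of the ACLY window lies 11.6 kb inside the RefSeq interval of the gene, at an internal start. The ACLY peak began 51 nt after that base, just past the printed bases. The SCD bases lay within the peak of replicate 2, which began 17 nt after the first base, and before that of replicate 1, which began 67 nt after it. The SREBF2 bases shared their last 4 positions with both peaks. A match to GGAN occurred in the same 30 bases of 49.7% of 35116 promoter windows, so the matches in ACLY and SCD are a description and set neither gene apart.

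The SREBF genes also host microRNAs on their own strand. Introns of SREBF2 and SREBF1 carry MIR33A and MIR33B, known for repressing genes of cholesterol export and fatty acid oxidation, and SREBF1 also carries MIR6777. The mature miR-33 sequences from RefSeq are printed to show the seed they share, bases 2 to 8, in capitals:
hsa-miR-33a-5p: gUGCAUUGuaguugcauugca
hsa-miR-33b-5p: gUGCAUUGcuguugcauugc
No peak of either replicate lay over any of the 3 hairpins. The MIR33A hairpin, at chr22:41900944-41901012, had its nearest upstream peak 594 nt away in replicate 1 (8 tags) and 444 nt away in replicate 2 (6 tags). Downstream, the nearest was 2038 nt away in replicate 1 (4 tags) and 1938 nt away in replicate 2 (15 tags). One of the 2 highest shared pairs of SREBF2, that of 8 and 7 tags, was the one 594 nt upstream. The MIR33B hairpin, at chr17:17813836-17813931, had an overlapping intron pair of 5 and 5 tags 269 nt upstream, and downstream a CDS peak of 10 tags at 436 nt in replicate 2 only. That peak was also the nearest to MIR6777, at 80 nt. Peaks thus lay in the exons and introns on either side, and the hairpins themselves had none listed, which sets no limit on binding there.

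**Figure D5:**
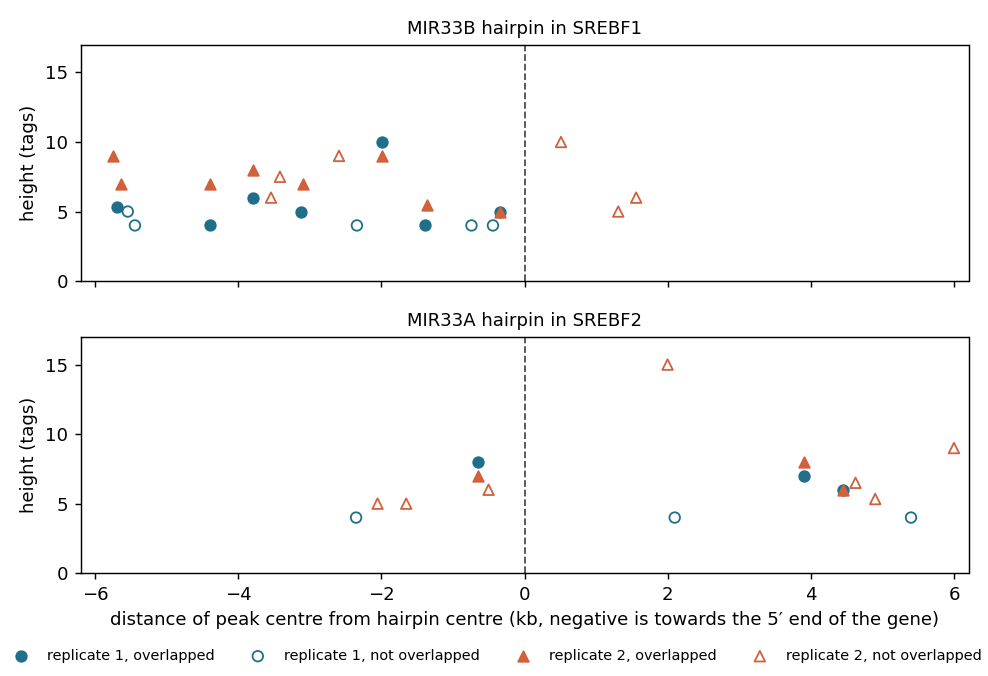
Height of sense peaks in tags (vertical axis) within 6 kb of the MIR33B hairpin in SREBF1 (top) and the MIR33A hairpin in SREBF2 (bottom), by the distance of the peak centre from the hairpin centre in kb (horizontal axis, negative towards the 5′ end), with symbols as for the heights along the genes. No symbol lies on the dashed line that marks either hairpin, and the nearest overlapping pairs are 5 and 5 tags for MIR33B and 8 and 7 tags for MIR33A, both upstream.

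Of 45 genes listed beside the 8, 36 were named by position and 28 had a sense peak in both replicates: 10 of 15 in fatty acid synthesis and desaturation, 10 of 18 in cholesterol synthesis and 8 of 12 in SREBP processing and uptake. The 28 were 62.2% of the list, against the 59.5% and 43.4% of the background. An overlapping pair was present in 3, 4 and 5 genes of these groups, 26.7% of the list, against 16.4% and 14.9%. Only FADS2, a desaturase, and ELOVL5, an elongase of polyunsaturated fatty acids, had a pair that reached 10 tags in both, 4.44% of the list against 2.96% and 2.82%. ELOVL5 had more peaks than FASN, with 46 in replicate 1 and 76 in replicate 2, and 14 pairs. Only 2 and 6 of these ELOVL5 peaks were mainly in CDS, where FASN had 24 and 28, and the counts are not adjusted for gene length. FADS2 had 20 and 14 peaks and 8 pairs. The FADS2 pair began at chr11:61837750-61837800 with 17 tags in replicate 1 and 17.3 in replicate 2, and the ELOVL5 pair at chr6:53327500-53327550 had 15 and 13 tags. Lower pairs were those of lanosterol synthase (LSS), with 9 and 11 tags, and of INSIG1, which holds the SREBP complex in the endoplasmic reticulum, with 6 and 13. Of the 9 genes without a name, 7 had no sense peak within their RefSeq interval and HSD17B12 and ACSL4 had peaks under identifiers that could not be named.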

How the data were processed

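IGF2BP2-bound RNA of Jurkat cells was sequenced by the authors as read pairs, aligned to GRCh38 with TopHat2, and uniquely mapped reads were kept. According to the methods, ABLIRC peaks were called in each iRIP library separately and peaks that overlapped input peaks were removed. The annotation behind regions and identifiers is not given in the sources used here. The deposited height of each peak is a signal in tags, not adjusted for depth, and depth per library is unknown. The p-values deposited with the peaks served as a threshold in 1 alternative only.

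The members and gene lists were chosen with earlier results of these data known. Symbols were given to identifiers through their positions in RefSeq genes (GRCh38.p14). A symbol was used where a single protein-coding gene, with a margin of 1000 nt, contained 80% or more of the CDS and UTR peaks of an identifier, or, without such peaks, where a single gene contained them all. In all, 15422 of 20428 identifiers were named, 12528 of them as protein-coding, and 5006 were not. The positions of all 8 members led to their own symbols, and all 290 of their sense peaks lay inside the RefSeq intervals. Each peak was assigned to the region that covers most of it. All peaks start at a multiple of 50 nt, and peaks that only touch at a boundary do not count as overlapping.

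For each member the pair with the highest lower height was named, with the 10 highest pairs over all members, and the 5 pathway genes with the highest pair, of which 1 is not reported here. There is 1 group with peak lists, so no contrast and no test was made, and shares have 95% Wilson intervals. Alternatives were minimum heights of 5 and 10 tags, a p-value under 0.001, exonic peaks only, any share in a sense region, an overlap of 50% of the length, strand ignored, the other direction of overlap, weighting by length and each replicate left out. Overlap and naming were tested on simulated data. Python 3.11.15 was used with numpy 2.4.6, pandas 2.3.3, scipy 1.17.1 and matplotlib 3.10.9.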

Additional observations from a re-analysis of the deposited data

Results flagged for a closer look

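Antisense peaks were not used in the counts above. ACACA had 6 peaks on its antisense strand in replicate 1, above the limit of 3 counts, and 2 in replicate 2. Their heights were 4 to 8 tags and 5 tags, and none overlapped between the replicates. Over the 8 genes there were 9 antisense peaks in replicate 1 and 8 in replicate 2, again with 0 overlapping pairs. No share over all genes is given beside these counts, so whether they are unusual cannot be told. ACACA is the longest of the 8 genes, at 321845 nt, and the counts are not adjusted for length.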

How the results depend on the processing

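No paired analysis was possible because the iRIP libraries share their replicate numbers only with the inputs, for which no values were analysed here. With a minimum of 10 tags, a peak in both replicates was left in 3 members, an overlapping pair in 1, 16.5 member peaks on average, 63.3% of them in CDS, 33.3% of those of replicate 1 overlapped, and the pathway genes with peaks in both numbered 2. With a minimum of 5 tags, the CDS share was 50.2% and the overlapped share 69.4%. With a p-value under 0.001 there were 55.5 member peaks on average, 53.1% in CDS, and 11 pathway genes. With exonic peaks only there were 88.5 peaks on average, 80.9% in CDS and 60.6% overlapped, 17 pathway genes, and 0 members with a pair of at least 10 tags in both, since the ACLY pair is mainly intron by its shares. For replicate 2 against replicate 1 the overlapped share was 36.3%. Leaving out each replicate gave 7 to 8 members with a peak, 122 to 168 member peaks, 48.8% to 49.2% in CDS and 31 to 33 pathway genes. In all, 17 of 43 alternatives moved these results and 26 did not, the ones that leave out a replicate included. Of the peak numbers and highest peaks of single members, 27 of 70 alternatives moved the value, by over 1.5 times for a peak number and by the spread between the replicates or more for a highest peak. Depth is unknown, so 1 minimum height is not equally strict in both libraries. The cause of the changes was not tested.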
